A study of Mus musculus with 6 samples.

Results

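The CYP2 family of cytochrome P450 genes was examined in livers of mice that received an adenovirus carrying Mafg cDNA (Ad-MAFG) and of mice that received the empty vector (Ad-CMV). Members were the protein-coding genes of the deposited table whose symbol was Cyp2 followed by a subfamily letter and a number, which gave 47 of 21255 protein-coding genes. Both groups were C57BL/6 wild-type mice at 10 weeks of age, fed normal chow, with 3 livers in each group. In the vector the CMV promoter, which is active in most cell types, drives the cDNA, so expression was not restricted to hepatocytes by the construct. Mafg was not analysed here, and the group labels were therefore taken as given.

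Cytochrome P450 enzymes are heme proteins of the endoplasmic reticulum that insert an oxygen atom into their substrates with electrons passed on by P450 oxidoreductase. The CYP2 family is the largest in the mouse and lies mostly in tandem clusters of near copies, so that subfamilies 2A and 2B share a cluster, while 2C, 2D and 2J each have their own. In the liver these enzymes clear drugs, solvents and steroids, convert arachidonic acid to epoxides, and act on bile acids and vitamin D, and many are most abundant in the hepatocytes around the central vein. MAFG is a small MAF protein, a basic leucine zipper factor with no transactivation domain, which binds MAF recognition elements alone or with partners such as NRF2 and BACH1.

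The summed level of the family was lower in livers of Ad-MAFG mice. The summed level of the 23 members that could be compared was 754.6 FPKM (fragments scaled to transcript length and to the number of mapped fragments) in Ad-MAFG livers against 2299 FPKM in Ad-CMV livers, a 3.05-fold lower sum, while the sum over all counted protein-coding genes was 1.28-fold lower. The 11 members at least 2-fold lower carried most of this, and the 12 other counted members summed to 274.9 FPKM in Ad-MAFG livers against 311.7 FPKM in Ad-CMV livers, 1.13-fold lower. The members were split by the same ratios, so a smaller difference in the other members follows from the split. Cyp2e1, Cyp2j5 and most of the measured 2D genes were lower, and within the 2C subfamily the adjacent genes Cyp2c37, Cyp2c54 and Cyp2c50 stood out from the others. Cyp2a5 and Cyp2c70 were not lower, and Cyp2c55 was higher. The table holds 1 FPKM value per group and no value per mouse. Each difference below is therefore a description of 2 group values, without an error, a replicate check or a test.

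The upstream sequences of the neighbours Cyp2c37 and Cyp2c50 are shown because these genes had almost the same ratio between the groups. They are the 250 bases before the RefSeq transcription start on GRCm38.p6, plus strand, at chr19:39992174-39992423 and chr19:40089429-40089678. Capitals mark TGCTGA, the short repeat unit of the MAF recognition element, here read on the other strand as TCAGCA. The windows of both genes, including the first 50 bases after the start, were 89.5% identical over 295 aligned bases. No window is shown for Cyp2c54, which lies between them. The ratio of Cyp2c50 came from a transcript on the strand opposite to the gene, and the one on its own strand had a log2 ratio of -1.34. Like windows did not always go with like ratios. The windows of Cyp2c67 and Cyp2c68 were 91.6% identical over 251 aligned bases, and their log2 ratios were -1.11 and -0.12.
Cyp2c37: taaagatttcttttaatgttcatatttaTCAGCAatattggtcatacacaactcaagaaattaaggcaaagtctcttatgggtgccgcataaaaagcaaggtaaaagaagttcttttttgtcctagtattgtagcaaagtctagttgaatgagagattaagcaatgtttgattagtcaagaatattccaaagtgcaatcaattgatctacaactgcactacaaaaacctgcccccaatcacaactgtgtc
Cyp2c50: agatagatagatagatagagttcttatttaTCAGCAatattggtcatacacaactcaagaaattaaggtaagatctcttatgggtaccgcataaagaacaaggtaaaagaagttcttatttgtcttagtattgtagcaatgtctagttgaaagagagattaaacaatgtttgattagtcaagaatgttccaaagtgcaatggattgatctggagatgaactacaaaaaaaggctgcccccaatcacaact

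Stretches of 30 bases around matches in further members are shown. They compare members at least 2-fold lower in Ad-MAFG livers (Cyp2d9, Cyp2d40 and Cyp2j5) with members that were not (Cyp2a5, Cyp2j9 and Cyp2c70, the last a 2C gene). The stretches are printed along the strand of the gene, on GRCm38.p6. Cyp2d9 is at chr15:82452221-82452250 on the plus strand, Cyp2d40 at chr15:82764312-82764341, Cyp2j5 at chr4:96664317-96664346, Cyp2j9 at chr4:96591506-96591535 and Cyp2c70 at chr19:40187252-40187281 on the minus strand, and Cyp2a5 at chr7:26835353-26835382 on the plus strand. Capitals mark TGCTGA or its reverse complement, and for Cyp2c70 the core TGAGTCA of the full element. The sites differ in position. Those of Cyp2d9, Cyp2d40, Cyp2j5 and Cyp2j9 lie before the transcription start. Those of Cyp2a5 and Cyp2c70 lie after it, from base 27 and base 18 of the transcript.
Cyp2d9: agcccagcagaaTCAGCAtgctctgctcct
Cyp2d40: agcctagcagaaTCAGCAtgctcagctcgt
Cyp2j5: cactgggtaaaaTGCTGActggaaaacagc
Cyp2a5: ccaccgccaccaTGCTGAcctcaggactcc
Cyp2j9: gcgggccaaagtTGCTGAagtgaatagagc
Cyp2c70: atttgttcccagTGAGTCAatggctctctt

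Of the 47 members, 28 had at least 1 row with enough alignments for the authors' software to process (status OK). For each gene the row with the highest mean FPKM was used, and a ratio was counted where the higher group reached 1 FPKM and neither group was listed at 0. This left 23 members. Cyp2b9, Cyp2f2, Cyp2g1 and Cyp2s1 stayed under 1 FPKM in both groups. Cyp2c65 had 1.11 FPKM in Ad-MAFG livers and was listed at 0 in Ad-CMV livers, so no ratio was formed. The other 19 members had no such row, and their highest value in either group was 0.131 FPKM. They were Cyp2a4, Cyp2a22, Cyp2b13, Cyp2b19, Cyp2b23, Cyp2c40, Cyp2c66, Cyp2c69, Cyp2d11, Cyp2d12, Cyp2d34, Cyp2j7, Cyp2j8, Cyp2j11, Cyp2j12, Cyp2j13, Cyp2t4, Cyp2u1 and Cyp2w1. Of these, 7 were listed at 0 in both groups. Cyp2c29 was not analysed here, and it stands without a value in the totals of the lists that name it.

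Among the 23 counted members, 11 were at least 2-fold lower in Ad-MAFG than in Ad-CMV livers, 1 was at least 2-fold higher and 11 were neither. Over all 7540 counted protein-coding genes, 4.32% were at least 2-fold lower and 4.69% at least 2-fold higher. The share of CYP2 genes that were lower, 47.8%, was thus above the background, and that of higher genes, 4.35%, was close to it. The median log2 ratio, with 0.1 FPKM added to each value, was -0.97 over the CYP2 genes and -0.046 over all counted genes. Of the 23 ratios, 19 were below 0 and 4 above. The members nearest the 2-fold line were Cyp2d22 at -1.07 and Cyp2c67 at -1.11 on the log2 scale inside it, and Cyp2b10 at -0.97 outside it.

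**Figure D1:**
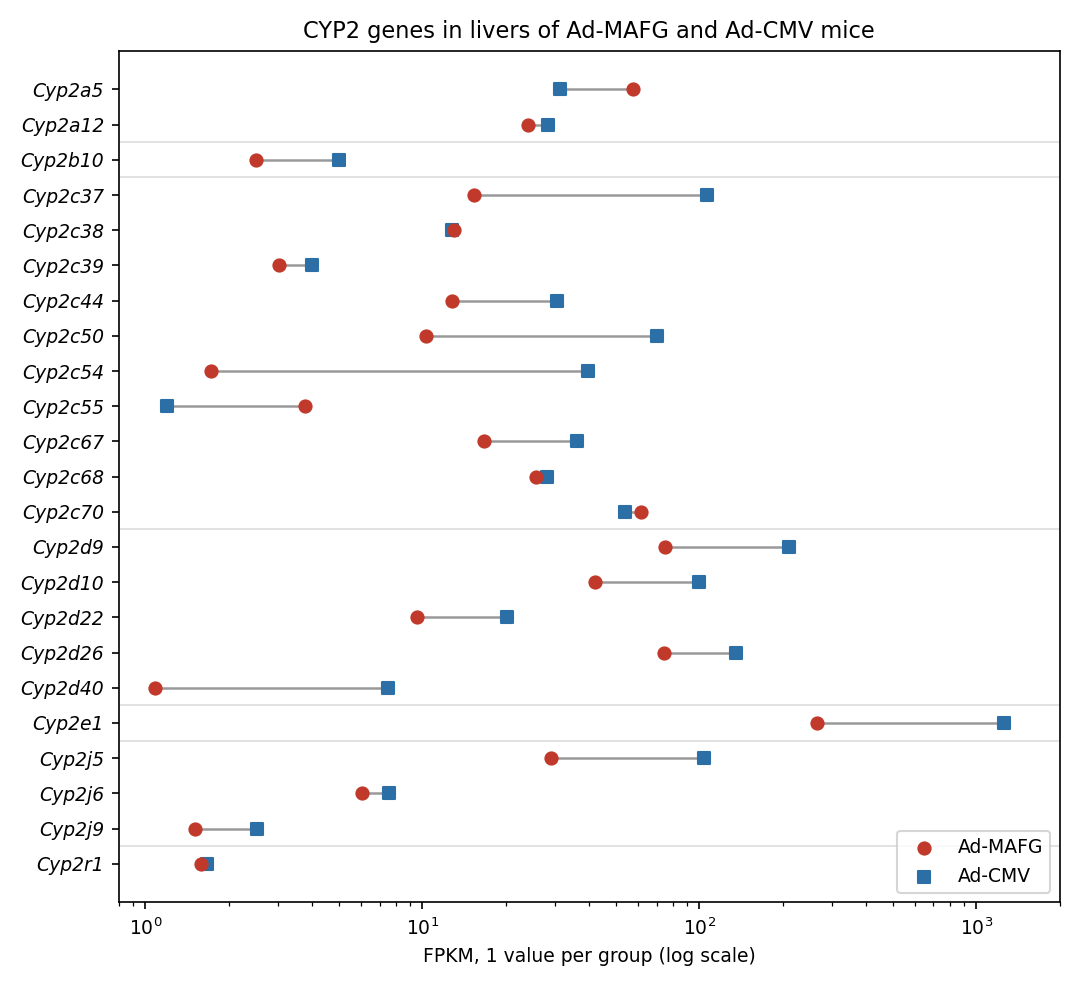
FPKM of the 23 counted CYP2 genes (horizontal, log scale), with the group value of Ad-MAFG livers as a red circle and that of Ad-CMV livers as a blue square. Genes are ordered by subfamily, and there is 1 value per group and no error bar. The widest gap was that of Cyp2c54, with 1.73 against 39.7 FPKM.

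The counts differed with the level of the genes. Of 16 members with a mean of at least 10 FPKM, 10 were at least 2-fold lower and 0 higher, beside 9.53% lower and 3.27% higher among the 1070 protein-coding genes of that level. Of 7 counted members with a mean under 10 FPKM, 1 was lower and 1 higher, beside 3.46% and 4.93% among the 6470 counted genes with a mean under 10 FPKM. Cyp2c54 had the 11th lowest ratio of all 7540 genes, Cyp2c37 the 41st, Cyp2c50 the 42nd, Cyp2d40 the 44th and Cyp2e1 the 61st.

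**Figure D2:**
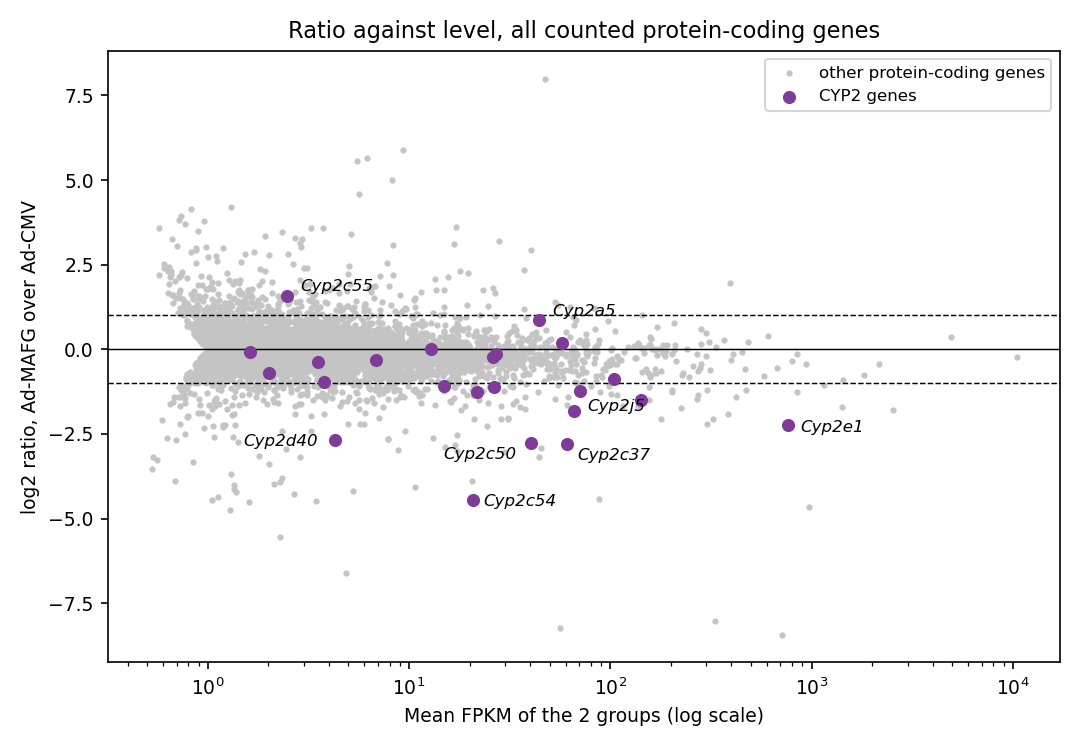
log2 ratio of Ad-MAFG over Ad-CMV (vertical) against the mean FPKM of both groups (horizontal, log scale) for 7540 protein-coding genes, with the 23 CYP2 genes in purple and the others in grey. Dashed lines mark 2-fold. Cyp2e1 is the CYP2 gene farthest to the right, and Cyp2c55 is the single CYP2 gene above the upper line.

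Cyp2e1 is the P450 that oxidizes ethanol, acetaminophen and many small solvents, and its RNA marks hepatocytes near the central vein. It had 266 FPKM in Ad-MAFG livers against 1263 FPKM in Ad-CMV livers, a 4.74-fold lower level with a log2 ratio of -2.25. By level it ranked 30th among all counted genes in Ad-MAFG livers and 11th in Ad-CMV livers. It made up 35.3% of the summed CYP2 FPKM in Ad-MAFG livers and 54.9% in Ad-CMV livers. Without Cyp2e1 the sum was 488.5 FPKM in Ad-MAFG livers against 1036 FPKM in Ad-CMV livers, 2.12-fold lower, so the lower family total did not rest on this gene alone.

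The 2C subfamily holds enzymes that oxidize arachidonic acid, retinoids, bile acids and many drugs. It had 14 members, of which 10 were counted, 5 at least 2-fold lower, 1 higher and 4 neither, with a median log2 ratio of -0.74. Cyp2c37 had 15.3 FPKM in Ad-MAFG livers against 106.2 FPKM in Ad-CMV livers, 6.91-fold lower. Cyp2c54 had 1.73 FPKM in Ad-MAFG livers against 39.7 FPKM in Ad-CMV livers, 21.8-fold lower and the lowest ratio of the family. Cyp2c50 had 10.3 FPKM in Ad-MAFG livers against 70.5 FPKM in Ad-CMV livers, 6.76-fold lower. All 3 genes code for arachidonic acid oxygenases. On chromosome 19 they follow each other in the order Cyp2c37, Cyp2c54 and Cyp2c50 between base 39992424 and base 40113950 (GRCm38), with Cyp2c37 and Cyp2c50 on the plus strand and Cyp2c54 on the minus strand.

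The other 2C genes on the chromosome differed less. Cyp2c44, an epoxygenase of arachidonic acid that lies apart from the main 2C cluster, had 12.8 FPKM in Ad-MAFG livers against 30.7 FPKM in Ad-CMV livers, a log2 ratio of -1.26. Cyp2c67 had 16.7 FPKM in Ad-MAFG livers against 36.2 FPKM in Ad-CMV livers, a log2 ratio of -1.11. Its near copy Cyp2c68 had 25.8 FPKM in Ad-MAFG livers and 28.1 FPKM in Ad-CMV livers. The neighbour on the other side of Cyp2c50 is Cyp2c70, the enzyme that makes muricholic acids, the bile acids typical of the mouse, and it was not lower, with 61.7 FPKM in Ad-MAFG livers and 53.7 FPKM in Ad-CMV livers. Cyp2c38, an epoxygenase, had 13.0 FPKM in Ad-MAFG livers and 12.8 FPKM in Ad-CMV livers. Cyp2c39, which can hydroxylate retinoic acid, had 3.05 FPKM in Ad-MAFG livers and 4.002 FPKM in Ad-CMV livers. The sum over Cyp2c37, Cyp2c50 and Cyp2c54 was 27.4 FPKM in Ad-MAFG livers against 216.4 FPKM in Ad-CMV livers, 7.91-fold lower, while the sum over the 7 other counted 2C genes was 136.8 FPKM against 166.6 FPKM, 1.22-fold lower. Cyp2c37, Cyp2c50 and Cyp2c54 have the lowest ratios of the subfamily, so the larger difference in their sum follows from the split. The 7 others include Cyp2c44 and Cyp2c67, each at least 2-fold lower.

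Cyp2c55, a gene known to be induced through the receptors CAR and PXR, was the one member at least 2-fold higher. It had 3.78 FPKM in Ad-MAFG livers against 1.19 FPKM in Ad-CMV livers, a log2 ratio of 1.59. This value came from a transcript assembled on the strand opposite to the gene, and the row on the strand of the gene held 0.171 FPKM in Ad-MAFG livers and 0.0714 FPKM in Ad-CMV livers. Cyp2c65, its neighbour, had the 1.11 FPKM against a listed 0 given above. Both genes lie at the end of the cluster away from Cyp2c50.

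**Figure D3:**
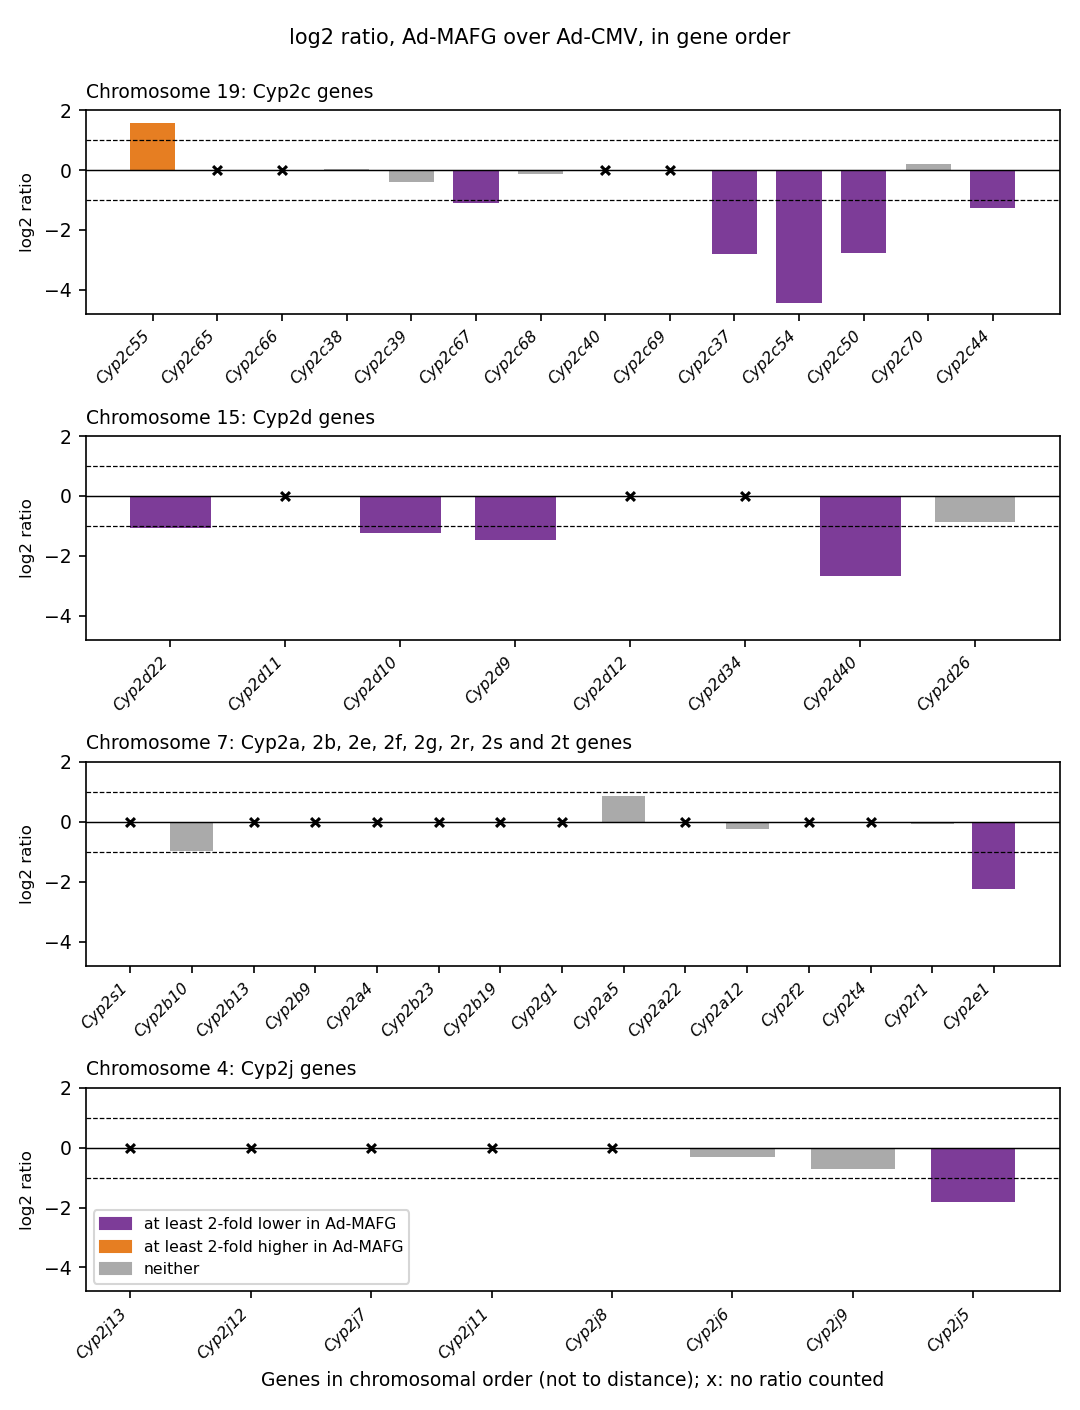
log2 ratio of Ad-MAFG over Ad-CMV (vertical) for the CYP2 genes of 4 chromosomes in chromosomal order (horizontal, not to distance), with genes at least 2-fold lower in purple, higher in orange and others in grey. A cross stands for a member without a counted ratio. The adjacent bars of Cyp2c37, Cyp2c54 and Cyp2c50 lie between -2.76 and -4.45.

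The 2D subfamily, which contains the mouse counterparts of human CYP2D6, was lower across its measured members. Of 8 members 5 were counted, 4 of them at least 2-fold lower and 0 higher, with a median log2 ratio of -1.24. Cyp2d9, a testosterone hydroxylase that is more abundant in livers of male mice, had 75.0 FPKM in Ad-MAFG livers against 210.1 FPKM in Ad-CMV livers, a log2 ratio of -1.49. Cyp2d10 had 42.0 FPKM in Ad-MAFG livers against 99.5 FPKM in Ad-CMV livers, a log2 ratio of -1.24. Cyp2d40 had 1.09 FPKM in Ad-MAFG livers against 7.49 FPKM in Ad-CMV livers, 6.40-fold lower. Cyp2d22 had 9.58 FPKM in Ad-MAFG livers against 20.3 FPKM in Ad-CMV livers, a log2 ratio of -1.07. Cyp2d26, at the end of the cluster, had 74.3 FPKM in Ad-MAFG livers and 135.3 FPKM in Ad-CMV livers, 1.82-fold lower and thus under the 2-fold line. All 5 measured 2D genes had the lower value in Ad-MAFG livers.

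Of the 2J subfamily, whose enzymes are epoxygenases of arachidonic acid, 3 of 8 members were counted. Cyp2j5, the member known for its high level in liver and kidney, had 29.1 FPKM in Ad-MAFG livers against 103.6 FPKM in Ad-CMV livers, 3.55-fold lower with a log2 ratio of -1.83. Cyp2j6 had 6.06 FPKM in Ad-MAFG livers and 7.59 FPKM in Ad-CMV livers. Cyp2j9 had 1.51 FPKM in Ad-MAFG livers and 2.52 FPKM in Ad-CMV livers. The 5 other 2J genes had no row with enough alignments. Over the 6 counted genes of a list of arachidonate epoxygenases of the 2C and 2J subfamilies, 2 were at least 2-fold lower, Cyp2j5 and Cyp2c44, and 0 higher, with a median log2 ratio of -0.54. That list does not hold Cyp2c37, Cyp2c50 and Cyp2c54, and its count and median depend on their absence.

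The counted 2A, 2B and 2R genes differed by less than 2-fold. Cyp2a5, the coumarin hydroxylase and a gene known to respond to NRF2, had 57.5 FPKM in Ad-MAFG livers and 31.5 FPKM in Ad-CMV livers, 1.82-fold higher. Cyp2a12, which hydroxylates bile acids, had 24.1 FPKM in Ad-MAFG livers and 28.3 FPKM in Ad-CMV livers. Cyp2b10, the gene most often used as a readout of CAR activity, had 2.51 FPKM in Ad-MAFG livers and 5.02 FPKM in Ad-CMV livers, 1.96-fold lower. Cyp2r1, a vitamin D hydroxylase, had 1.59 FPKM in Ad-MAFG livers and 1.67 FPKM in Ad-CMV livers. Of the members that stayed under 1 FPKM, Cyp2b9, a gene more abundant in livers of female mice, had 0.704 FPKM in Ad-MAFG livers and 0.131 FPKM in Ad-CMV livers, a log2 ratio of 1.80 that was not counted, and Cyp2s1 had 0.392 FPKM in Ad-MAFG livers and 0.125 FPKM in Ad-CMV livers. Cyp2g1, known from the olfactory mucosa, had 0.246 FPKM in Ad-MAFG livers and 0.588 FPKM in Ad-CMV livers.

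Cyp2f2, which bioactivates naphthalene and is known as a periportal marker, was listed at 0.331 FPKM in Ad-MAFG livers and 0.665 FPKM in Ad-CMV livers on the strand of the gene. The same locus held a row on the opposite strand named for the antisense gene Gm15883, with 8.004 FPKM in Ad-MAFG livers and 16.9 FPKM in Ad-CMV livers and a log2 ratio of -1.07. Which of the overlapping genes gave these reads was not tested, so the level of Cyp2f2 is uncertain. The same holds for Cyp2u1, a fatty acid hydroxylase with no usable row, whose locus overlaps a row named 4930534D22Rik with 1.05 FPKM in Ad-MAFG livers and 2.37 FPKM in Ad-CMV livers.

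The strand of a row mattered because the libraries were prepared with a strand-specific kit, yet many genes had their highest row on the strand opposite to the annotated gene. This was so for 9 of 23 CYP2 genes and for 71.0% of all counted genes, and its cause was not tested. Cyp2a12 was an extreme case, with 24.1 and 28.3 FPKM on the opposite strand in Ad-MAFG and Ad-CMV livers but 0.0509 and 0.0479 FPKM on its own strand. For Cyp2d9 the opposite strand held 0.452 FPKM in Ad-MAFG livers and 0.531 FPKM in Ad-CMV livers, beside the 75.0 and 210.1 FPKM given above. For the 15 members with usable rows on both strands, the row with the highest mean FPKM on each strand was compared. Between these rows the ratio had the same sign in 15, with a median difference of 0.18 on the log2 scale. Cyp2c50 had the largest difference, with a log2 ratio of -2.76 on the opposite strand and -1.34 on its own, where the levels were 0.588 FPKM in Ad-MAFG livers and 1.64 FPKM in Ad-CMV livers. Of 17 members with at least 2 usable rows, 16 had all rows on the same side of 0, and Cyp2c38 did not. A further row of Cyp2c38 on the opposite strand had a log2 ratio of -0.20, beside 0.02 on its own strand.

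**Figure D4:**
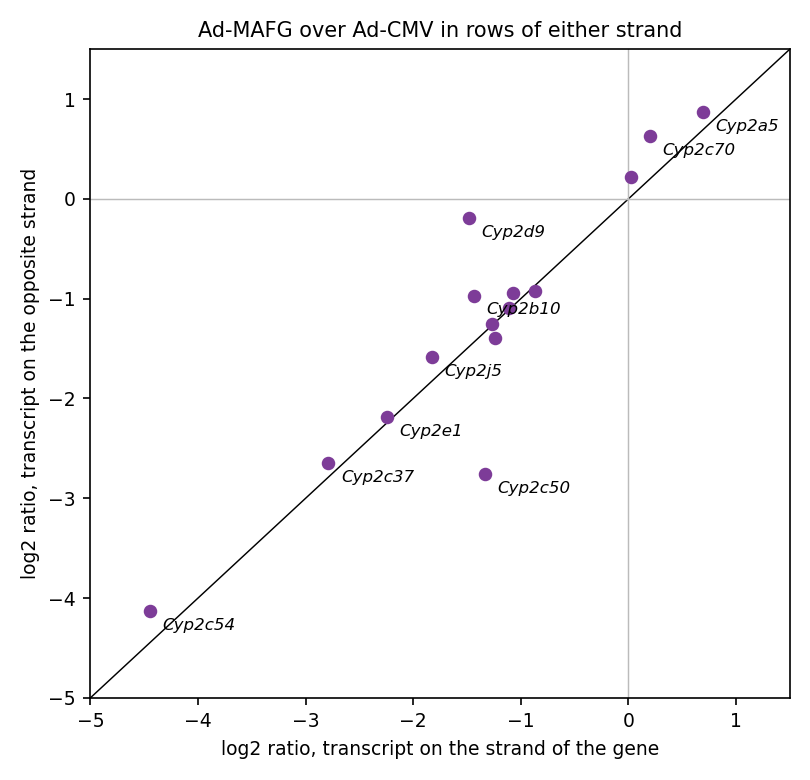
log2 ratio of Ad-MAFG over Ad-CMV from the row on the strand of the gene (horizontal) and from the row on the opposite strand (vertical) for the 15 counted CYP2 genes with both. The diagonal marks equal ratios. Cyp2c50 and Cyp2d9 lie farthest from it, and no gene changes sign.

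Because CYP2 genes are near copies, the split of reads between some of them is uncertain. The coding sequences of Cyp2c37 and Cyp2c50 were 96.1% identical, those of Cyp2c37 and Cyp2c54 95.1%, and those of Cyp2c50 and Cyp2c54 95.2%. Those of Cyp2c67 and Cyp2c68 were 97.2% identical, and their log2 ratios were nevertheless -1.11 and -0.12. Of all windows of 76 bases, the read length in the labels, in the coding sequence of Cyp2c67, 37.5% occurred unchanged in a transcript of another gene, mostly the uncounted Cyp2c40. The corresponding shares were 32.9% for Cyp2a5, 31.98% for Cyp2c68, 28.5% for Cyp2d10, 19.7% for Cyp2c50, 17.8% for Cyp2d9, 16.0% for Cyp2c54, 15.8% for Cyp2a12 and 14.0% for Cyp2c37. These are all counted members with a share over 10%. For 8 counted members, among them Cyp2e1, Cyp2j5, Cyp2c44, Cyp2c55 and Cyp2c70, the share was 0%. The sum over Cyp2c67 and Cyp2c68 was 42.5 FPKM in Ad-MAFG livers against 64.3 FPKM in Ad-CMV livers, 1.51-fold lower. The sum over Cyp2d9 and Cyp2d10 was 117.0 FPKM in Ad-MAFG livers against 309.6 FPKM in Ad-CMV livers, 2.65-fold lower. Both sums still depend on the split with genes outside them, since Cyp2c68 also shared most with Cyp2c40, at 25.8% of its windows, and Cyp2d10 with Cyp2d11, at 18.8%.

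Matches to 4 short motifs were counted on both strands in windows from 250 bases before to 50 bases after the RefSeq start. A window was found for 39 members, 20 of them counted, and none for Cyp2c44, Cyp2c54 and Cyp2d22 among the counted. TGCTGA was found in 19.5% of all 32851 windows of the table. It was found in 11 of the 39 CYP2 windows and in 7 of the 20 windows of counted members. Of these 20, it was found in 5 of 8 windows of members at least 2-fold lower in Ad-MAFG livers (Cyp2c37, Cyp2c50, Cyp2d9, Cyp2d40 and Cyp2j5). It was found in 2 of 12 windows of the other counted members (Cyp2a5 and Cyp2j9). These counts are not independent, since the matches of Cyp2c37 and Cyp2c50 lie in stretches that are nearly the same, as do the upstream matches of Cyp2d9 and Cyp2d40. The match of Cyp2a5 lies after the start, as does a further match of Cyp2d40. The core TGAGTCA was found in 5.2% of all windows and, among counted members, in Cyp2c70 only. The antioxidant response element, searched as TGACNNNGC, was found in 12.4% of all windows and, among counted members, in Cyp2j6 only. AGTCCA, a repeat unit of HNF4A sites, was found in 14.1% of all windows, in 3 of 8 of the lower members and in 6 of 12 of the others. None of the 4 motifs was found in the window of Cyp2e1, which says only that these letters are not in that stretch.

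Genes that act with the CYP2 enzymes are given as lists beside the family. Of the electron supply 6 of 6 genes were counted and 0 were past 2-fold in either direction, with a median log2 ratio of -0.25. Por, the P450 oxidoreductase, had 7.65 FPKM in Ad-MAFG livers and 6.76 FPKM in Ad-CMV livers. Of the genes of heme synthesis and breakdown 8 of 11 were counted and 0 were past 2-fold. Of the receptors and liver factors that control CYP2 genes 9 of 15 were counted, 1 was lower and 0 higher. The lower one was Nr1i3, the receptor CAR, with 7.42 FPKM in Ad-MAFG livers against 16.7 FPKM in Ad-CMV livers and a log2 ratio of -1.16. Nr1i2, the receptor PXR, had 9.12 FPKM in Ad-MAFG livers and 9.01 FPKM in Ad-CMV livers. Nfe2l2, the gene of NRF2, had 13.7 FPKM in Ad-MAFG livers against 7.14 FPKM in Ad-CMV livers. Its log2 ratio of 0.93 was just under the 2-fold line. Of the CYP2 genes known to be induced through CAR, 3 of 6 were counted. Cyp2c37 was at least 2-fold lower, and Cyp2b10 was 1.96-fold lower and thus just under the 2-fold line. Cyp2c55 was at least 2-fold higher, at a low level and from a row on the opposite strand.

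The position of hepatocytes along the lobule was covered by lists of pericentral and periportal genes. Of the pericentral genes 10 of 16 were counted, with 5 at least 2-fold lower, 0 higher and a median log2 ratio of -1.06. The lower ones were Cyp2e1, Cyp2c37 and Cyp2c50 together with Rgn, with 33.6 FPKM in Ad-MAFG livers against 89.5 FPKM in Ad-CMV livers, and Cyp27a1, with 17.6 against 50.7 FPKM. Cyp1a2, also pericentral, had 54.8 FPKM in Ad-MAFG livers and 54.7 FPKM in Ad-CMV livers. Of the periportal genes 9 of 13 were counted, with 3 lower, 0 higher and a median of -0.76. Low ratios thus occurred in both lists. Of genes more abundant in male livers 10 of 13 were counted, with 6 lower, 1 higher and a median of -1.58. The higher one was Slco1a1, with 10.9 FPKM in Ad-MAFG livers against 0.131 FPKM in Ad-CMV livers and a log2 ratio of 5.57. Of genes more abundant in female livers 3 of 17 were counted, with 1 lower and 0 higher. Both lists hold CYP2 genes, among them Cyp2d9, which is 1 of the 6 lower, so they are not separate from the family. The sex of the mice is not given in the sources used here.

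In whole livers fewer hepatocytes and less RNA per hepatocyte cannot be told apart. Of the hepatocyte markers 8 of 10 were counted, 3 were at least 2-fold lower and 0 higher, with a median log2 ratio of -0.56. Alb, the albumin gene, had 5603 FPKM in Ad-MAFG livers and 4310 FPKM in Ad-CMV livers, while Apoa2 had 661 and 2159 FPKM. Of the stellate cell markers 8 of 8 were counted, 0 were lower and 4 higher, with a summed level of 155.4 FPKM in Ad-MAFG livers against 52.9 FPKM in Ad-CMV livers. The higher ones were Acta2 and the collagen genes Col1a1, Col1a2 and Col3a1. Col3a1 alone had 62.5 FPKM in Ad-MAFG livers against 12.2 FPKM in Ad-CMV livers. Lrat, Rgs5, Des and Pdgfrb were neither. Of the cholangiocyte markers 4 of 5 were counted, 0 were lower and 2 higher, with a summed level of 48.4 FPKM in Ad-MAFG livers against 16.2 FPKM in Ad-CMV livers. Most of that sum was Spp1, with 40.9 FPKM in Ad-MAFG livers against 11.5 FPKM in Ad-CMV livers. Krt19, the other higher one, had 1.49 against 0.584 FPKM, and Epcam and Sox9 were neither. Of the Kupffer cell and monocyte markers 7 of 7 were counted, with 1 lower and 0 higher. No endothelial marker was past 2-fold among 5 counted, and of 4 counted T and NK cell markers 1 was lower. The part of these markers in the lower CYP2 levels was not tested.

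Other P450 families with drug or fatty acid substrates were set beside the CYP2 genes. Of 4 counted CYP3 genes 2 were at least 2-fold lower and 0 higher, with a median log2 ratio of -1.11. Of 10 counted CYP4 genes 5 were lower and 1 higher, with a median of -1.02. These 10 do not include Cyp4a12a and Cyp4a12b, whose symbols end in a letter. Both had usable values and were neither, with log2 ratios of -0.69 and -0.47. Including them would reduce the share of lower CYP4 genes and raise the CYP4 median. Without these 2 genes, the CYP3 and CYP4 shares and medians were close to those of the CYP2 genes. Of 3 counted CYP1 genes 0 were lower and 1 was higher, Cyp1a1, with 3.07 FPKM in Ad-MAFG livers against 0.333 FPKM in Ad-CMV livers. The CYP2 family held the gene with the lowest ratio of the 4 families, Cyp2c54, and the lowest ratio among CYP3 and CYP4 genes was -1.68.

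**Figure D5:**
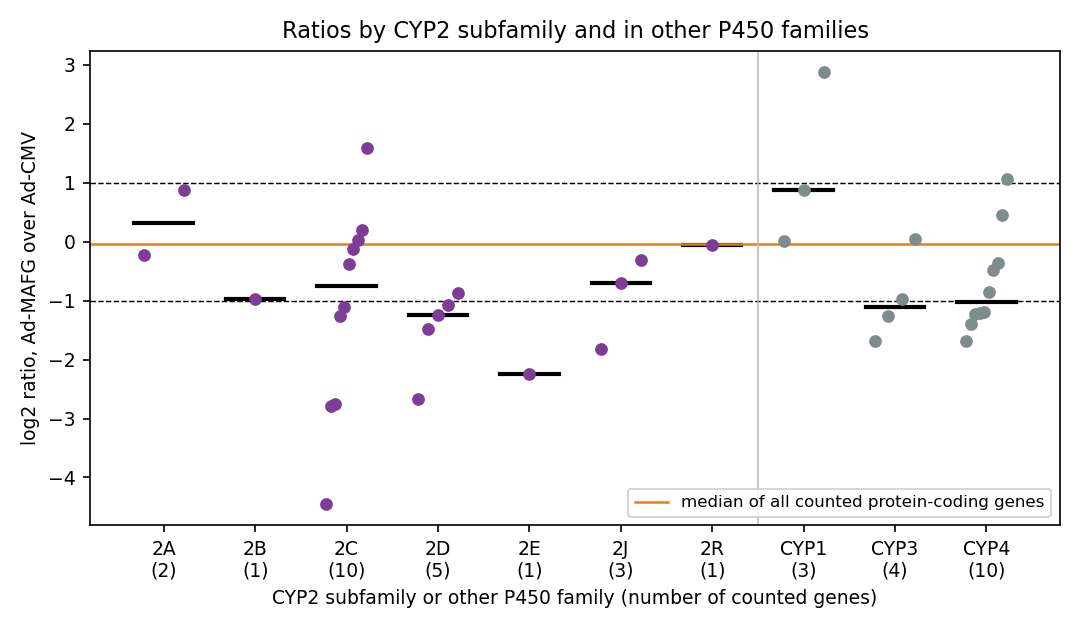
log2 ratio of Ad-MAFG over Ad-CMV (vertical) for each counted gene, by CYP2 subfamily (purple) and for the families CYP1, CYP3 and CYP4 (grey), with the number of genes under each name. Black bars are medians, the orange line is the median of all counted genes at -0.046 and dashed lines mark 2-fold. The 2D median lies at -1.24 and the 2A median at 0.32. The CYP4 group leaves out Cyp4a12a and Cyp4a12b.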

How the data were processed

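Total RNA of 6 livers (3 Ad-MAFG, 3 Ad-CMV) was depleted of ribosomal RNA and sequenced as strand-specific paired reads of 76 bases per the labels, or 75 bases per the study's methods. Windows of 75 bases, tried after seeing the data, moved no share of shared windows of a counted member by more than 0.615 percentage points. Per the study's methods and processing notes, the authors removed reads of unwanted RNA with Bowtie2 2.2.9, aligned with STAR 2.6.0c to mm10, assembled transcripts with Cufflinks 2.2.1 and quantified them with Cuffdiff. The deposited FPKM values are the authors' values per group, with no value per mouse. The depth of each library is therefore unknown, and no error, interval or test was computed. The deposited columns with the authors' fold changes, test statistics, p-values and q-values were not used.

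The table held 68997 rows, each an assembled transcript of its own locus. For each protein-coding gene the row with status OK and the highest mean FPKM was taken. Ratios are log2((Ad-MAFG + 0.1)/(Ad-CMV + 0.1)), counted at 1 FPKM or more in the higher group and with neither group at 0, and called at 2-fold. The strand of a row was read from the order of the locus numbers. Every counted CYP2 gene is named with both values. The other lists are given by counts, and only some of them also by named genes. Members and lists were chosen with earlier results of these data known. Promoter windows were from RefSeq (GRCm38.p6) and coding sequences from GENCODE M21, aligned globally with Biopython 1.88. Nucleotide identity replaced the protein identity first planned. The scripts (Python 3.11.15, pandas 2.3.3) were tested on simulated data. Alternatives covered the pseudocount, the filter, the fold, the choice of row, the strand and the centring.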

Additional observations from a re-analysis of the deposited data

How the results depend on the processing

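The count of CYP2 genes at least 2-fold lower, 11 as reported, became 5 at 4-fold and stayed within 1.5 times of 11 under the 10 other alternatives. Beside this, the share of all counted protein-coding genes that were lower was 4.32% as reported, 1.02% at 4-fold and 10.8% at 1.5-fold. The count at least 2-fold higher, 1 as reported, became 3 with no filter on low values (Cyp2b9 and Cyp2s1 added), 2 at 1.5-fold (Cyp2a5 added), and 0 at 4-fold, with a minimum of 5 FPKM or with own-strand rows only. Cyp2c55 was the gene lost in the cases with 0. The share of all genes that were higher was 6.11% with no filter, 10.1% at 1.5-fold and 1.06% at 4-fold. It was 4.21% with a minimum of 5 FPKM and 4.43% with own-strand rows only. Rows on the opposite strand alone lost the calls of Cyp2d9, which stayed under 1 FPKM there, of Cyp2d40, which has no such row, and of Cyp2d22, at a log2 ratio of -0.94. Summing all rows of a gene added Cyp2b10 at -1.04. With no filter on low values the 2B median was 0.42, against -0.97 as reported from Cyp2b10 alone. No gene called at 2-fold turned its direction, and the median of the CYP2 genes and of the 2C, 2D and 2J subfamilies moved by less than 1.5-fold. The background moved more, with 2.71% of all genes lower at a pseudocount of 1 FPKM and 7.25% lower at a minimum of 5 FPKM, where the median of all genes was -0.15. No paired analysis was possible because the value columns hold groups and carry no replicate numbers, and leaving out a replicate could not be run for the same reason. Depth per mouse is unknown, so the precision of low values such as those of Cyp2c55 and Cyp2d40 cannot be given.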

Other observations

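Cyp2d37-ps, a row of protein-coding biotype whose name falls outside the rule because it is called a pseudogene, had 5.08 FPKM in Ad-MAFG livers against 29.6 FPKM in Ad-CMV livers on the strand opposite to the gene, a log2 ratio of -2.52. On its own strand it had 1.62 FPKM in Ad-MAFG livers against 7.76 FPKM in Ad-CMV livers, a log2 ratio of -2.20. It was singled out after its values were seen. Near copies of 2D genes can share its reads, and this was not tested.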
